A study of Mus musculus with 6 samples.

Results

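The stimulatory G protein gene Gnas and 4 protein kinase genes, Camk1, Mapk9, Rps6ka5 and Dyrk3, were followed in mouse liver, 5 of the 122 genes that the authors paired with a feature among the 45220 features of the array. A feature is 1 spot of the array, read as 1 intensity. The 5 were chosen by gene symbol from the authors' deposited table of deregulated genes, which gives for each gene the ratios of treated mice to the control average. That table was therefore made from the same contrast in the same 6 livers, so extract against control is described here for these genes and not tested. The ratios themselves were not used, and no threshold for entry to the table is given in the sources used here.

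The extract group was 3 male mice that received by gavage 500 µl each day for 20 days of a water extract of jujube (Ziziphus jujuba) at 6 mg/mL. The control group was 3 male mice given water in the same way. All were 8 weeks old at day 0 and had standard chow and water freely. A strain is not named in the labels, and each array held the liver RNA of 1 mouse, labelled with Cy3.

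Gnas encodes the alpha subunit of the stimulatory G protein. On liver cells, receptors for glucagon and for adrenaline switch it on, it activates adenylyl cyclase, and the cyclic AMP that follows acts through protein kinase A on glycogen breakdown and glucose synthesis. The 4 kinases stand in other branches of signalling: Camk1 encodes calcium/calmodulin-dependent protein kinase I, Mapk9 encodes the stress-activated kinase JNK2, Rps6ka5 encodes MSK1, and Dyrk3 encodes a dual-specificity kinase. Protein kinase A, MSK1 and kinases of the calcium/calmodulin family can each phosphorylate the transcription factor CREB, which binds DNA at the palindrome TGACGTCA or at its half-site TGACG.

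The sequence before the start of each gene was searched for that half-site on both strands. RefSeq windows of assembly GRCm38.p6 were used, which reach from 250 bases before to 50 bases after a start. Neither JNK2 nor the product of Dyrk3 is among the CREB kinases named above. The half-site was found for 4 of the 5 genes, Gnas, Rps6ka5, Mapk9 and Camk1, and in 23.0% of the 27025 genes with such a window (20.8% of 32851 windows). The full palindrome was found in none of the 5, and in 2.03% of genes. The 81-base stretches that hold the half-site are shown 5′ to 3′ on the strand of the gene, with the half-site in capitals, where CGTCA is TGACG read on the other strand. Dyrk3, with no half-site in its window, is shown over the bases just before its start. Each match describes these letters only, and no binding was measured.
Gnas, start farthest downstream, chr2:174329756-174329836, plus strand: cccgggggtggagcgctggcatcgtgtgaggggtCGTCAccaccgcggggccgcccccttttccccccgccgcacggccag
Gnas, second start, chr2:174327668-174327748, plus strand: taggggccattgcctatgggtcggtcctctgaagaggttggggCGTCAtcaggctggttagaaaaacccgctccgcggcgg
Camk1, chr6:113344065-113344145, minus strand: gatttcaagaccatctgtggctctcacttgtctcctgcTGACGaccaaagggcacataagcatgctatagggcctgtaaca
Mapk9, chr11:49846670-49846750, plus strand: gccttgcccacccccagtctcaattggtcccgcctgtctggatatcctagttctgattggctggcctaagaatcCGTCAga
Rps6ka5, chr12:100725177-100725257, minus strand: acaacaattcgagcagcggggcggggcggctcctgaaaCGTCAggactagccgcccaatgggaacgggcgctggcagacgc
Dyrk3, chr1:131138235-131138315, minus strand: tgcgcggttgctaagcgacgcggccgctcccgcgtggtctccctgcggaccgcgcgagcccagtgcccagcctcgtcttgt

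The half-site began 216 and 38 bases before those starts of Gnas, 185 before that of Camk1, 99 before that of Rps6ka5 and 7 before that of Mapk9. The AP-1 motif TGANTCA, read on both strands, was in none of the 5 genes' windows and in 8.97% of genes. The CCAAT motif was in the windows of Gnas, Rps6ka5 and Mapk9 (41.1% of genes), and GGGCGG, the GC box, was in those of the same 3 genes (38.2% of genes). GC content of the windows lay between 60.0% for Camk1 and 81.7% for the downstream window of Gnas.

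Of the 5 features, 4 carry an accession that RefSeq lists under the same gene symbol, and that of Gnas, an Ensembl transcript, was matched by symbol. The gene body of Gnas lies at chr2:174284320-174346744 and has 23 RefSeq transcripts and 4 start windows. It overlaps Gnasas1, its antisense RNA, and the predicted gene Gm30189. Camk1 (chr6:113334124-113343922) overlaps Ogg1, a DNA repair gene, while Mapk9 (chr11:49846728-49886421), Rps6ka5 (chr12:100548439-100725328) and Dyrk3 (chr1:131128441-131138234) overlap no other listed gene. The exon that each feature reads is not known here, so Gnas values belong to its feature and not to 1 transcript of the locus, and whether each feature reads its named gene alone was not tested.

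Between 22.7% and 26.8% of features exceeded an intensity of 100 on an array, and 9434 did so on all 6 arrays, the 5 genes among them. These are called bright features. Unscaled, the median bright feature lay between -0.20 and 0.34 (log2) from its mean over the arrays, so intensities were quantile normalized and put on the log2 scale, and unscaled values are given beside them. The array of extract mouse 1 correlated with the others at 0.955 to 0.959 over bright features, while the highest correlation of every other array was 0.981 or more. None of 6 hepatocyte marker genes is paired with a feature here, so the tissue label was not checked. In bulk liver, fewer cells of a type and less RNA per cell cannot be told apart.

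All 5 genes had higher normalized means in extract livers than in controls, by 2.21-fold for Gnas, 1.92-fold for Dyrk3, 1.75-fold for Camk1, 1.51-fold for Mapk9 and 1.22-fold for Rps6ka5. Of the 122 listed genes 113 had a higher mean in extract livers, and so did 48.2% of bright features. For Gnas, Dyrk3 and Mapk9 all 3 extract mice lay above all 3 controls, and for Camk1 and Rps6ka5 the groups overlapped. Among bright features, 9.54% had all extract mice above all controls, and 4.33% of all features and 83 of the 122 listed genes did. Without scaling, Camk1 joined the other 3, where 14.1% of bright features and 13.7% of all features had no overlap in that direction. In log2 units, median differences were 0.81 over the 5 genes, 0.60 over the 122 listed genes and -0.010 over bright features. Since the list comes from this contrast, nothing is read from these counts and medians.

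A limma fit of extract against control over the whole table called 0 of 45220 features at an adjusted p below 0.05 (0%), and 2313 at an unadjusted p below 0.05 (5.11%). Standard errors given below come from it, and no p is given for single genes, because the same contrast listed them. The labels name separate individuals, so n counts mice.

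**Figure D1:**
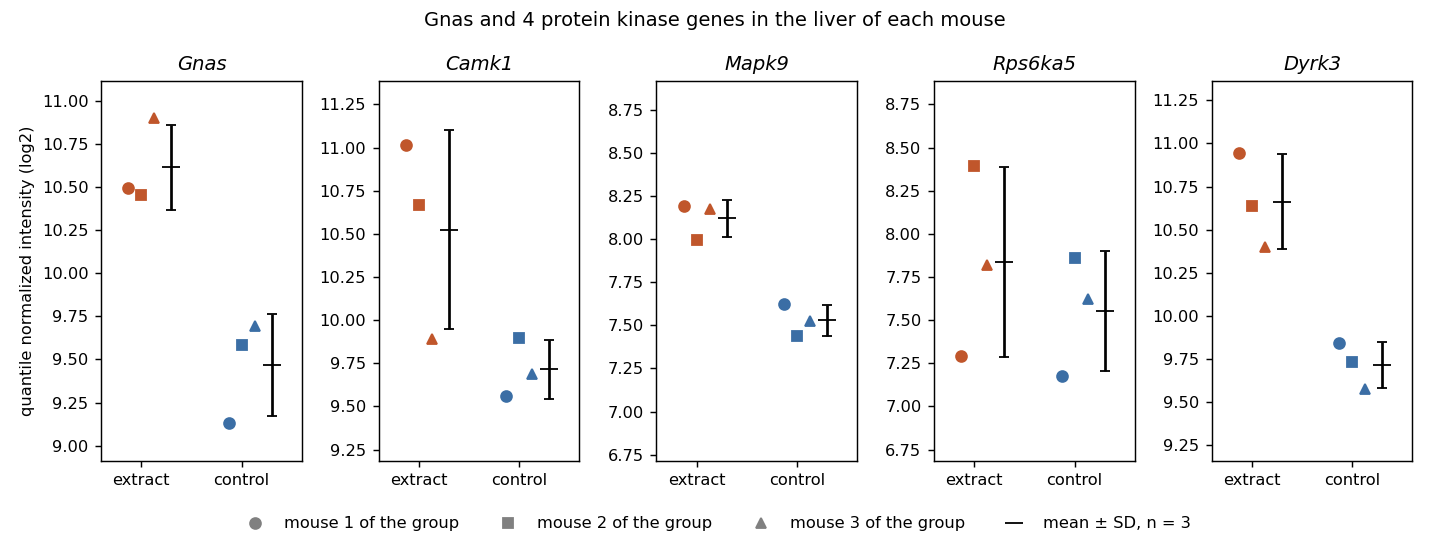
Quantile normalized intensity (log2, vertical axes spanning the same range in each panel) of Gnas, Camk1, Mapk9, Rps6ka5 and Dyrk3 in each of 3 extract and 3 control mice, with the mean ± SD at the right of each group. Extract and control points are apart for Gnas, Mapk9 and Dyrk3, overlap slightly for Camk1 (lowest extract 9.89, highest control 9.90) and mix for Rps6ka5.

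Gnas had the highest difference of the 5. Its deposited intensities were 1202, 1741 and 2105 in extract mice 1, 2 and 3, against 476, 673 and 901 in control mice 1, 2 and 3. Normalized to 10.49, 10.45 and 10.90 in the extract mice and 9.13, 9.58 and 9.69 in the controls (log2), every extract value stayed above every control, with a gap of 0.76 between the lowest extract mouse and the highest control. Extract mouse 3 was the highest of all and control mouse 1 the lowest.

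Extract livers averaged 10.61 ± 0.25 and control livers 9.47 ± 0.30 for Gnas (SD, n = 3 each), a difference of 1.15 (SE 0.23). Each extract mouse stood 2.03-, 1.98- and 2.69-fold over the control mean on that scale. Without scaling the difference was 1.31 (SE 0.34), since quantile normalization moved Gnas by 0.26, -0.32 and -0.14 on extract arrays 1, 2 and 3 and by 0.23, 0.19 and -0.12 on the control arrays. Of bright features, 0.0636% had a larger difference, and among the 122 listed genes Gnas ranked 3. Such shares and ranks, here and below, use signed differences from the highest down. A gene lower in extract livers thus ranks low whatever the size of its difference.

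Dyrk3, whose kinase dissolves stress granules and other condensates in human cells, came next. Its intensities were 1622, 1977 and 1476 in extract mice 1, 2 and 3, against 783, 752 and 834 in the control mice. The controls lay close together and every extract mouse was well clear of them, by 642 intensity units at the nearest point.

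On the normalized scale Dyrk3 was 10.95, 10.64 and 10.40 in the extract mice and 9.84, 9.73 and 9.58 in the controls. Means were 10.66 ± 0.27 in extract livers and 9.72 ± 0.13 in control livers (SD, n = 3 each), a difference of 0.94 (SE 0.19), and 1.09 (SE 0.15) without scaling. The spread among extract mice was thus about that of Gnas, and the controls spread less. A larger difference was seen in 0.138% of bright features.

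Camk1, a kinase that calcium-bound calmodulin and an upstream kinase switch on, differed by 0.81 (SE 0.33), and its extract mice varied widely. Intensities were 1705, 2013 and 1027 in extract mice 1, 2 and 3, against 640, 846 and 899 in the controls. Extract mice 1 and 2 were far above all controls and extract mouse 3 was only 128 units above the highest control.

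Once normalized, Camk1 values were 11.01, 10.67 and 9.89 in the extract mice and 9.56, 9.90 and 9.69 in the controls, and extract mouse 3 minus control mouse 2, the highest control, came to -0.0057. The means were 10.52 ± 0.57 in extract livers and 9.71 ± 0.17 in control livers (SD, n = 3 each). Fold over the control mean was 2.46, 1.94 and 1.13 in extract mice 1, 2 and 3. Whether Camk1 counts as separated between the groups thus depends on scaling, while the mean difference was 0.95 (SE 0.31) without it.

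Mapk9 showed a smaller and more even difference. JNK2, its product, is activated by stress and cytokines through an upstream MAP kinase cascade and phosphorylates c-Jun. Intensities were 263, 315 and 316 in extract mice 1, 2 and 3, against 166, 147 and 196 in the controls. All extract mice were above all controls, and both groups were tight.

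Normalized Mapk9 was 8.19, 8.00 and 8.17 in the extract mice and 7.62, 7.44 and 7.52 in the controls. Its means, 8.12 ± 0.11 in extract livers and 7.53 ± 0.092 in control livers (SD, n = 3 each), differed by 0.59 (SE 0.14), and by 0.82 (SE 0.17) without scaling. It had the lowest SD of the 5 in each group. A larger difference was found in 1.48% of bright features, and Mapk9 ranked 68 in the list of 122.

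Rps6ka5 did not separate the groups under either scale. MSK1, its product, is switched on by the ERK and p38 MAP kinases and phosphorylates CREB and histone H3. Intensities were 150, 419 and 247 in extract mice 1, 2 and 3, against 122, 200 and 210 in the controls. Extract mouse 2 alone was far above the controls, and extract mouse 1 lay below control mice 2 and 3.

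For Rps6ka5 the normalized values were 7.29, 8.39 and 7.82 in the extract mice and 7.18, 7.86 and 7.62 in the controls. Means of 7.83 ± 0.55 in extract livers and 7.55 ± 0.35 in control livers (SD, n = 3 each) gave a difference of 0.28 (SE 0.35), less than the spread in either group. The unscaled difference was 0.53 (SE 0.46). Over the control mean, extract mice 1, 2 and 3 stood at 0.835-, 1.79- and 1.20-fold. Without extract mouse 2 the difference was 0.0020, without control mouse 1 it was 0.095, without control mouse 2 it was 0.43 and without extract mouse 1 it was 0.56. Of bright features 12.3% had a larger difference, and Rps6ka5 ranked 108 among the listed genes.

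**Figure D2:**
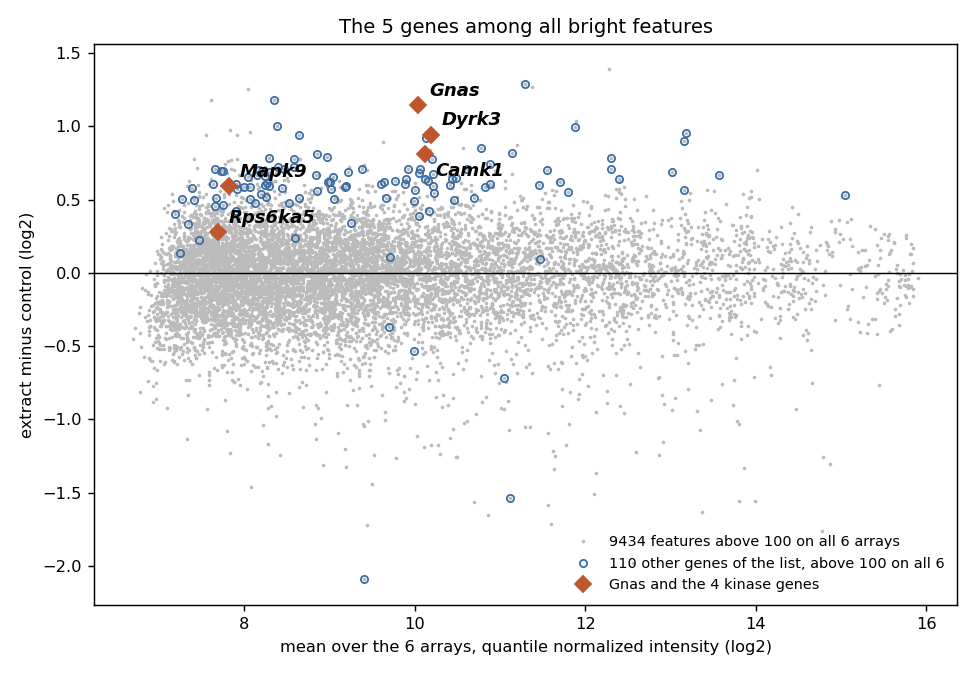
Difference between extract and control livers (log2, vertical axis) against the mean over the 6 arrays (quantile normalized log2 intensity, horizontal axis) for 9434 bright features (grey points), the other listed genes that are bright (open circles) and the 5 genes (diamonds). Gnas, Dyrk3 and Camk1 lie at the upper edge of the cloud, Mapk9 above its bulk, and Rps6ka5, at 0.28, inside it.

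Without the array of extract mouse 1, which stood apart, the differences were 1.21 for Gnas, 0.81 for Dyrk3, 0.57 for Camk1 and 0.56 for Mapk9. Gnas, Dyrk3 and Mapk9 still had all extract mice above all controls, beside 14.0% of bright features on those 5 arrays. Leaving out extract mouse 3, the lowest for Camk1, gave a Camk1 difference of 1.12, and Camk1 then separated the groups too, beside 14.9% of bright features. With any 1 array left out, Gnas ranged from 0.98 to 1.25, Dyrk3 from 0.81 to 1.07 and Mapk9 from 0.54 to 0.65.

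**Figure D3:**
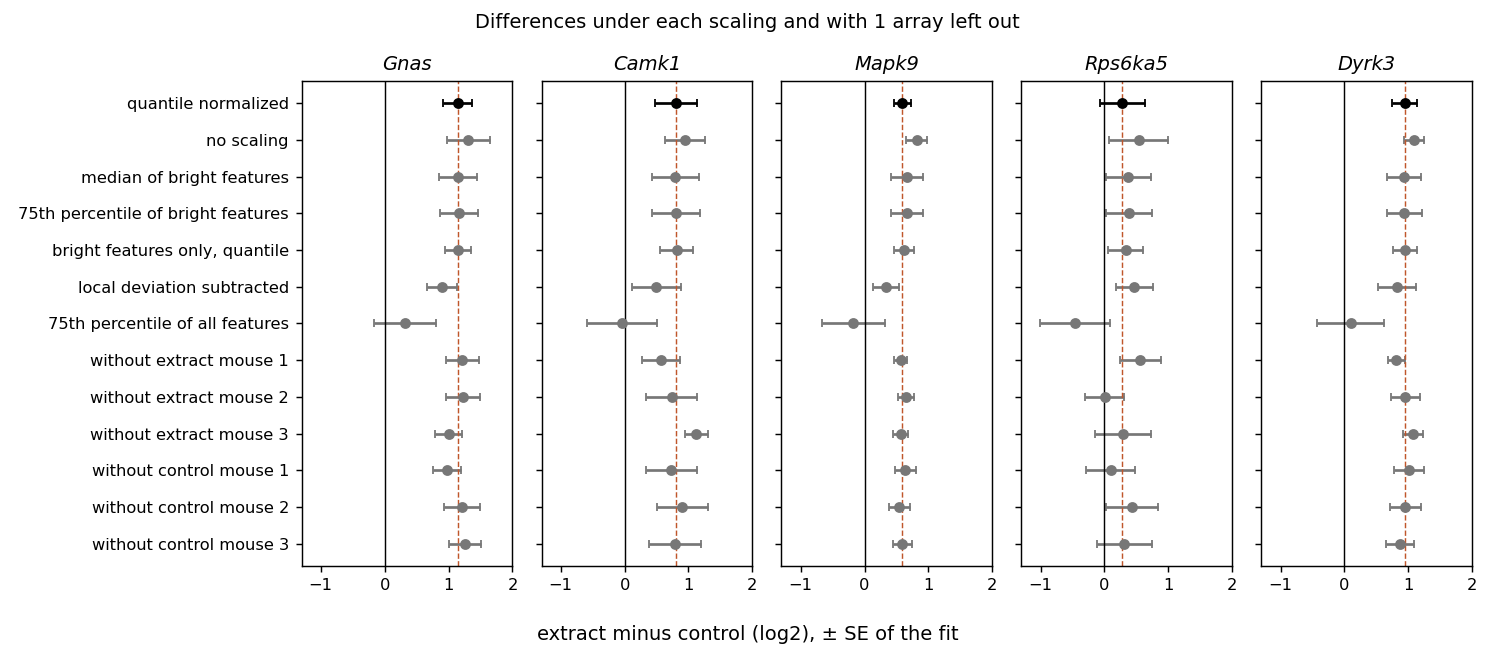
Extract minus control difference (log2, horizontal axis, with the SE of the limma fit) of each gene under 7 ways of processing and with each array left out in turn (rows). The dashed line marks the quantile normalized value, and the solid line marks 0. The points for Gnas and Dyrk3 stay right of 0 throughout, those for Camk1, Mapk9 and Rps6ka5 cross it with the 75th percentile of all features, and that for Rps6ka5 reaches it without extract mouse 2.

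Where a gene sits on the array was compared with its values, because neighbouring features moved together: deviations of bright features about 85 numbers apart correlated at 0.335 to 0.498 on the 6 arrays. These correlations were highest at 84 to 86 numbers apart, depending on the array, and a row length of 85 was assumed. In rows of that length, the features for Gnas and Mapk9 lie in adjoining rows, 134 and 135, at columns 58 and 79. Camk1 lies in row 162 at column 85, the last of its row, Dyrk3 in row 353 at column 64 and Rps6ka5 in row 463 at column 16. For each gene the median deviation of its neighbours from their own means was taken, over an 11 by 11 neighbourhood without the gene itself, using 17 neighbours for Camk1, 21 for Rps6ka5, 27 for Mapk9, 34 for Dyrk3 and 35 for Gnas.

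The neighbours of 4 genes were themselves higher in extract livers. They differed between extract and control by 0.29 (log2) around Camk1, 0.25 around Mapk9, 0.23 around Gnas and 0.12 around Dyrk3, and by -0.20 around Rps6ka5. Local deviations were also subtracted over the whole array, there taken with each feature itself included. Differences were then 0.90 for Gnas, 0.82 for Dyrk3, 0.50 for Camk1, 0.46 for Rps6ka5 and 0.34 for Mapk9. The difference was thus 0.34 (SE 0.21) for Mapk9, against 0.59 (SE 0.14) before subtraction. For Camk1 it was 0.50 (SE 0.38), against 0.81 (SE 0.33) before. Gnas, Dyrk3 and Mapk9 still had all extract mice above all controls, beside 10.5% of bright features. The part of array position in the differences was not tested beyond this subtraction.

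**Figure D4:**
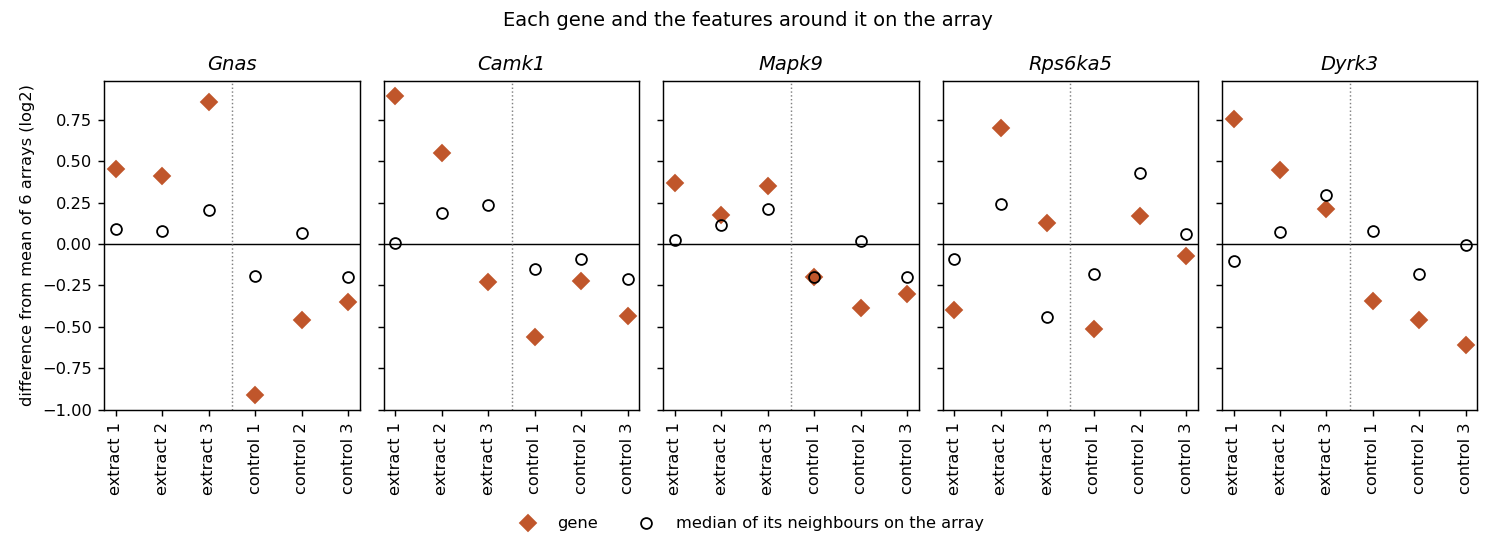
Deviation of each gene from its mean over the 6 arrays (filled diamonds) and the median deviation of the features around it (open circles), both in log2, for each of 3 extract and 3 control arrays. For Gnas the extract mice lie at 0.41 to 0.86 while their neighbours lie at 0.077 to 0.20, and for Mapk9 the extract mice lie at 0.17 to 0.37 and their neighbours at 0.025 to 0.21.

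The 5 genes were not all highest in the same extract mouse, with or without scaling. Over the 6 arrays, Pearson correlations among the 10 pairs ran from 0.11 for Rps6ka5 with Mapk9 to 0.93 for Mapk9 with Dyrk3, and a difference between the groups that both genes show adds to these values. On the normalized scale, deviations from the group means correlated at 0.79 for Camk1 with Dyrk3. They correlated at -0.75 for Gnas with Dyrk3 and at -0.94 for Rps6ka5 with Mapk9. Such values depend on scaling, and those of unscaled deviations are not given. Of the extract mice, mouse 1 had the highest normalized Mapk9 (8.19) and the lowest Rps6ka5 (7.29). Without scaling, Mapk9 and Rps6ka5 were both lowest in mouse 1 (263 and 150). Among the extract mice, normalized Camk1 and Dyrk3 were both highest in mouse 1 and lowest in mouse 3, where Gnas was highest. Unscaled, both were highest in mouse 2. These are descriptions of 6 arrays that share their normalization. Deviations within a group of 3 add up to 0, so nothing is read from their correlations.

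Each gene was also set beside the other listed genes, and up to 3 with the highest correlation over the 6 arrays are given. Since 113 of the 122 listed genes had a higher mean in extract livers, the difference between the groups adds to these correlations. For Gnas they were the anion transporter gene Slc26a11 (r = 0.94), Zer1 (0.92), a substrate receptor of a ubiquitin ligase, and the sodium-glucose cotransporter gene Slc5a1 (0.92). For Dyrk3 they were the olfactory receptor gene Olfr1051, the fatty acid hydroxylase gene Cyp4a12a and Ppnr, each at 0.98. For Camk1 they were Aplp1 (0.98), of the amyloid precursor family, the general transcription factor gene Gtf2b (0.95) and the mRNA capping enzyme gene Rngtt (0.94).

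For Mapk9 the most alike were Xkr5, the bitter taste receptor gene Tas2r123 and the proteasome activator gene Psme1, each at 0.98. For Rps6ka5 those reported were Adrm1 (0.92), a ubiquitin receptor of the proteasome, and Spg21 (0.85). Deviations from the group means correlated at 0.91 for Rps6ka5 with Adrm1 and at 0.89 with Spg21. For Gnas they correlated at 0.43 with Slc26a11, 0.83 with Zer1 and 0.20 with Slc5a1. For Mapk9 the values were 0.71 with Xkr5, 0.77 with Tas2r123 and 0.69 with Psme1. For Dyrk3 they were 0.99 with Olfr1051, 0.86 with Cyp4a12a and 0.84 with Ppnr, and for Camk1 0.97 with Aplp1, 0.90 with Gtf2b and 0.87 with Rngtt. These genes were picked for their correlation on the same arrays. All these pairs lay at least 39 rows apart on the array.

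Other genes of the same pathways were few among those with a named feature. Of 58 genes listed for Gs and cyclic AMP signalling, 48 for MAP kinase cascades and 20 for calcium and calmodulin kinases, none but Gnas, Mapk9, Rps6ka5 and Camk1 is named, so receptors, adenylyl cyclases and target genes were not analysed here. Of 16 genes listed with the DYRK kinases, Prpf4b was the other one, and 0 of the named genes in these 4 lists passed the limma threshold. Prpf4b, a kinase of the spliceosome, had intensities of 851, 858 and 975 in extract mice 1, 2 and 3, against 466, 408 and 615 in the controls.

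Normalized Prpf4b averaged 9.74 ± 0.27 in extract livers and 9.03 ± 0.14 in control livers (SD, n = 3 each), a difference of 0.71 (SE 0.19) between that of Mapk9 and that of Camk1. Cdk1, the kinase that drives entry into mitosis, is the other protein kinase whose description in the authors' table names it so. Its intensities were 246, 399 and 246 in extract mice 1, 2 and 3, against 134, 158 and 162 in the controls, with a normalized difference of 0.70 (SE 0.19). Both genes had all extract mice above all controls, with and without scaling. So did 4.33% of all features once normalized and 13.7% unscaled, and 83 of the 122 listed genes once normalized. Both genes were listed from the same contrast.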

How the data were processed

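Liver RNA of 6 mice was read on 1-colour Agilent arrays. The authors deposited intensities for 45220 features, whole numbers that reach below 0. Agilent Feature Extraction is named in the submitters' processing notes, with no version; the sources used here do not state the background correction or any scaling. Per the file headers, the authors' deposited table also holds a ratio of each treated mouse to the control average, and it was read here only for symbols and feature numbers.

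Intensities were quantile normalized over all 45220 features, values under 1 were set to 1, and log2 was taken. The 5 genes exceeded 100 on every array and never met that floor. Groups were compared with limma 3.58.1 (lmFit, eBayes) in R 4.3.3; p-values were two-sided and Benjamini-Hochberg adjusted across the whole table, and the fit and the local deviation were tested on simulated data. A local deviation is the median, over 11 by 11 features above 100 on at least 4 arrays, of feature values minus their own means over the arrays. The number of arrays limits the precision. Named genes are the 5, the 3 most correlated listed genes for each, listed members of 4 pathway lists, and genes whose description in the authors' table names a kinase or a G protein. That last rule was written for RefSeq descriptions, which the reference table lacks, and 1 gene it names is not reported here. Members and lists were chosen with earlier results of these data known. Alternatives were other scalings, a floor of 16, bright features alone, moderation with trend and robust settings, the replicate block, and each array left out.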

Additional observations from a re-analysis of the deposited data

How the results depend on the processing

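Differences of the 5 genes kept a positive sign under all alternatives but 1. With the 75th percentile over all features, under which the median difference of bright features was -0.81, they were 0.32 for Gnas, 0.097 for Dyrk3, -0.041 for Camk1, -0.18 for Mapk9 and -0.46 for Rps6ka5, and 0 of the 5 had all extract mice above all controls. Relative to that shift all 5 stayed higher. Mapk9 was 0.82 without scaling, where the median of bright features was 0.18, and 0.34 with local deviations subtracted. With 1 array left out, differences were 0.98 to 1.25 for Gnas, 0.81 to 1.07 for Dyrk3, 0.57 to 1.12 for Camk1, 0.54 to 0.65 for Mapk9 and 0.0020 to 0.56 for Rps6ka5, and 3 to 4 of the 5 genes separated the groups, beside 12.6% to 15.8% of bright features. The 0 features past the adjusted limma threshold became 31 without scaling, 1 on bright features alone (Mrps11, named after its value was seen) and 0 to 190 on 5 arrays (190 when extract mouse 1 was dropped, 41 when extract mouse 3 was), and stayed 0 under the other alternatives, with 1340 to 3331 features at an unadjusted p below 0.05. The replicate block left the 5 differences as they were and called 0 features. With it the SE was 0.18 for Gnas, 0.17 for Rps6ka5, 0.16 for Dyrk3, 0.14 for Mapk9 and 0.33 for Camk1. Without it, in the same order, the SE was 0.23, 0.35, 0.19, 0.14 and 0.33. Deviations from group means correlated at 0.043, 0.15 and 0.25 between mice of the same number and at -0.19 to 0.031 between others. For extract mouse 1 the values were close, 0.043 with control mouse 1 and 0.031 with control mouse 2. Deviations within a group of 3 add up to 0, so these correlations depend on one another and nothing is read from them. The labels do not say what a shared number means. The cause of the changes between alternatives was not tested.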

Other observations

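Listed genes whose description names a G protein or a kinase in another role varied among themselves. The orphan receptor gene Gpr22 had intensities of 214, 331 and 356 in extract mice 1, 2 and 3. Those of the controls were 181, 129 and 156, a normalized difference of 0.69 (SE 0.23). All its extract mice were above all controls once normalized, as in 83 of the 122 listed genes and 4.33% of all features. Gpr165, dim at 94, 234 and 196 in the extract mice, against 139, 120 and 147 in the controls, differed by -0.074 (SE 0.38).

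Galk2, a sugar kinase, had intensities of 2942, 6356 and 4735 in extract mice 1, 2 and 3, against 2079, 2778 and 3621 in the controls. Its groups overlapped without scaling and did not once normalized, the reverse of Camk1, with a difference of 0.55 (SE 0.22). Sh3kbp1, an adaptor protein of receptor endocytosis, was higher by 0.59 (SE 0.25), at 302, 482 and 254 in the extract mice, against 157, 197 and 226 in the controls. All of these genes were listed by the authors from this contrast. Of the cell type markers, only Fcgr2b of sinusoidal endothelium is named here, and cell composition was not analysed.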
